A study of Drosophila melanogaster with 24 samples.

Results

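A group of 10 spots, of the 22575 on each array, had a lower level in the proboscis of the adult fruit fly Drosophila melanogaster than in its antenna and first legs, which lay no farther from each other than the proboscis lay from the nearer of them. They were chosen from the measured values. On the rule's scale (log2 of the background-subtracted signal with negative values set to 0 and an offset of 50, quantile normalised) all 8 proboscis values had to lie below the other 16, the proboscis mean had to lie at least 0.7 below that of the nearer tissue, and this gap had to be at least as wide as that between antenna and first legs. The tissue differences below are therefore a description of what was chosen and are not tested. The data came from 24 samples, 4 from each sex of each tissue, dissected 1 to 2 hours after the adult left the pupal case. From the antenna the third segment and the arista were collected, and from the first legs the part below the distal tibia, while for the proboscis the labels name no part. The messenger RNA was amplified before labelling. All flies are given as isogenic line WI89 in the design text, but the descriptions of the samples name RIL 58 or RIL 89, 2 samples of each in every group. The labels name no treatment, and do not say whether replicates came from separate flies or how many flies were pooled.

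Antenna, leg and proboscis are serially related appendages that grow from imaginal discs. The identity of the proboscis is set by the Hox gene proboscipedia together with Sex combs reduced, and without proboscipedia the labial disc forms leg or antennal structures in its place. The antenna is the main organ of smell, the legs and the labellum of the proboscis carry taste bristles, and the first legs of males bear the sex comb. The files used here do not pair spots with genes. No gene, pathway or sequence can therefore be given to any of the 10 spots, the labelled tissues could not be checked against marker genes, and spots are given by their number in scanner file order and by place on the array grid. In whole dissected tissue, fewer cells of a type and less RNA per cell cannot be told apart.

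The 24 samples fell into 12 pairs, a Cy3 and a Cy5 sample with the same quality scores at every spot, and each pair was taken as 1 array. The median signal above local background was 102 to 148 in the Cy3 samples and 16.1 to 62.9 in the Cy5 samples. Across spots the 2 channels of an array correlated at 0.628 to 0.737 on 8 arrays and at 0.855 to 0.969 on the other 4. These are called the 8-array set and the 4-array set. The number of arrays limits the precision of every value. Levels from here on are log2 signals after normexp background correction with an offset of 50 and quantile normalisation, a scale on which the median of all values was 6.28 and the lowest 5.67. At the 10 spots it differed from the rule's scale by at most 0.74, and all 10 also kept their 8 proboscis values below the other 16 on it.

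Of the 22575 spots, 44 had all 8 proboscis values below the rest. The gap was under 0.7 at 29 of them, and at 5 more the antenna and first legs lay farther apart than the gap. On the rule's scale the members just inside the limit had gaps of 0.72, 0.74 and 0.78, and the spots just outside it had 0.60, 0.65 and 0.68. Another 11 spots met both gap limits but had overlapping values, and at the nearest of these the lowest value elsewhere minus the highest proboscis value was -0.0034, -0.0091 and -0.0116. Without proboscis female replicate 4 the rule kept 16 spots, and with samples scaled to 1 median it kept 4. The same rule turned to the other tissues kept 63 spots low in the antenna and 11 low in the first legs. The plot of the 2 gaps shows that 1 member stood apart with a gap of 2.48, against 1.61 for the next.

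**Figure D1:**
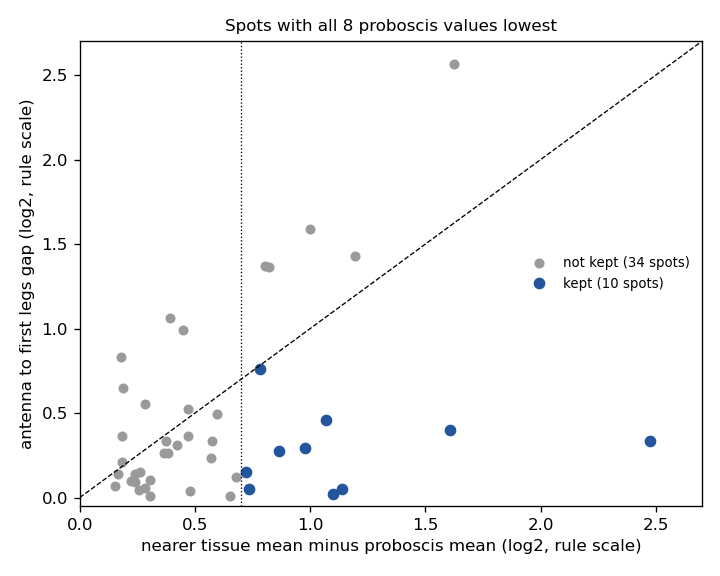
Each point is 1 of the 44 spots whose 8 proboscis values all lay below the other 16. The horizontal axis is the gap between the nearer tissue mean and the proboscis mean and the vertical axis the gap between antenna and first legs, both log2 on the rule's scale, with the dotted line at 0.7 and the dashed line where both gaps are equal. The 10 kept spots lie to the right of the dotted line and below the dashed one, 8 of them with a gap under 1.2.

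By their means the 10 spots were brighter than most spots in the antenna and the first legs. Their mean levels lay between 7.43 and 11.68 in the antenna (median over the 10 spots 8.29) and between 7.38 and 11.34 in the first legs (median 8.56), at the 91.9th percentile of all spots or higher in both tissues. Single samples of these tissues could be dim, with a signal above background down to 0.70 times the local background at spot 19839. In the proboscis their means lay between 5.92 and 8.76 (median 7.07), where the median over all spots was 6.29. The gap to the nearer tissue ran from 0.93 to 2.59 on the log2 scale, with a median of 1.21, against -0.04 over all spots. A wide gap was a condition of the choice, so this contrast with all spots follows from the rule. At 8 of the 10 the proboscis mean was still above that of at least 50% of all spots (69.1st to 98.1st percentile), while the remaining 2 fell to the 10.7th and 11.4th percentile.

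Spot 13337 (row 63, column 7) had the largest gap. Its levels were 11.53 to 11.96 in the 8 antenna samples and 11.01 to 11.61 in the 8 first leg samples. In the female proboscis it stood at 8.52, 8.08, 9.81 and 9.78 in replicates 1 to 4, and in the male proboscis at 8.29, 8.92, 8.37 and 8.27. The highest proboscis value thus lay well below the lowest value elsewhere, and the female replicates fell into a lower and a higher pair, the higher pair being the 2 labelled RIL 89. In every female group the RIL 89 samples are replicates 3 and 4, so RIL number and replicate number cannot be told apart there. Over both sexes the proboscis samples of RIL 89 ranged from 8.37 to 9.81 and those of RIL 58 from 8.08 to 8.52. The proboscis mean was 8.76 ± 0.69 (SD, n = 8), against 11.68 ± 0.16 in the antenna and 11.34 ± 0.20 in the first legs (SD, n = 8 each). The gap of 2.59 corresponds to a 6.01-fold higher level in the first legs. In the fit with dye, array and RIL number the antenna exceeded the proboscis by 2.79 ± 0.17 and the first legs by 2.58 ± 0.19 (SE). It was the only member with a quality mark, on the array shared by first legs female replicate 1 and first legs male replicate 2, whose levels of 11.24 and 11.58 lay within the range of the other first leg samples.

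Spot 12144 (row 57, column 104) came next. It had levels of 10.34, 9.24, 10.55 and 10.65 in female antennae and 10.61, 10.18, 10.27 and 9.08 in male antennae. First leg levels were 9.12, 9.28, 10.30 and 10.13 in females and 9.65, 10.004, 9.11 and 10.04 in males. In the proboscis it stood at 7.95, 7.64, 7.98 and 8.51 in females and at 7.77, 7.90, 7.95 and 7.90 in males. The 8 proboscis samples were thus closely grouped (SD 0.25, n = 8), whereas the antenna and first leg samples spread more (SD 0.61 and 0.48, n = 8 each) and overlapped each other. The lowest antenna and first leg values, 9.08 to 9.28 in 5 samples, all came from Cy3 channels of the 8-array set.

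**Figure D2:**
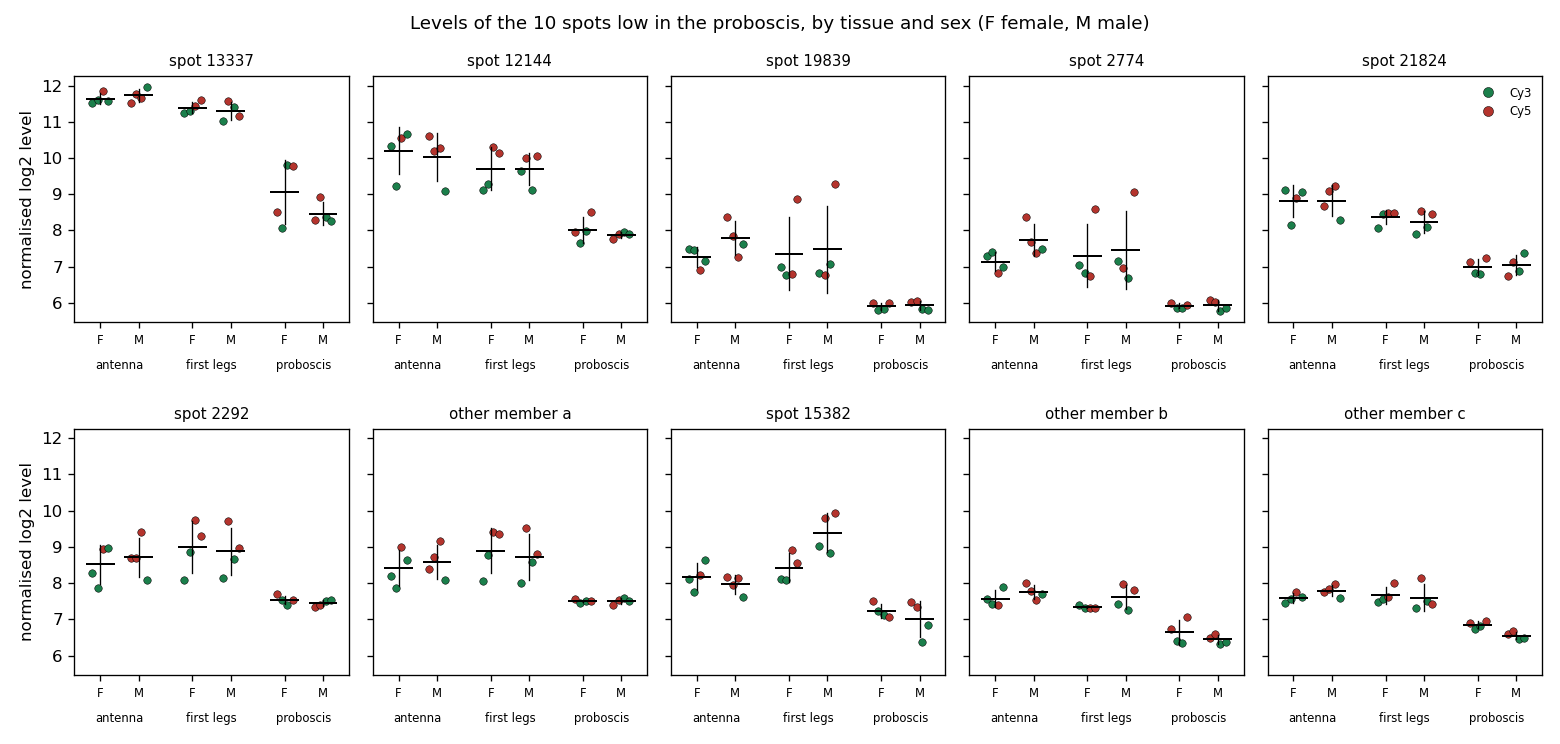
Each panel is 1 of the 10 spots, in order of falling gap, with the normalised log2 level on the vertical axis and the 4 samples of each sex and tissue as points coloured by dye. Bars are group means and lines ± 1 SD (n = 4). The proboscis points lie below all others in every panel, by the rule, and the panels differ in whether the proboscis sits near the bottom of the scale (spots 19839 and 2774) or well above it (spot 13337).

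The antenna mean was higher than the first leg mean at 7 of the 10 spots and lower at 3, and at 4 the difference was under 0.2. It could not exceed the gap by the rule. The largest excess of the antenna was at spot 21824 (row 102, column 109), with 8.81 ± 0.40 in the antenna and 8.31 ± 0.25 in the first legs (SD, n = 8 each), a difference of 0.51, followed by spot 12144 with 0.41. At spot 21824 the female antenna samples stood at 9.12, 8.16, 8.91 and 9.05 and the male ones at 8.68, 9.09, 9.23 and 8.29, against 8.07 to 8.49 in female and 7.89 to 8.54 in male first legs. The 2 lowest antenna values fell within the range of the first legs. Its proboscis levels were 7.14, 6.83, 6.80 and 7.23 in females and 6.74, 7.13, 6.89 and 7.37 in males, with no separation of the sexes. The largest excess of the first legs was at spot 15382 (row 72, column 117), where the antenna minus first legs difference was -0.84, followed by spot 2292 (row 11, column 142) with -0.32. At spot 15382 the means were 8.07 ± 0.31 in the antenna and 8.91 ± 0.68 in the first legs (SD, n = 8 each), and the sexes differed in the legs, as described further on. In the proboscis it stood at 7.51, 7.22, 7.13 and 7.06 in females and at 7.47, 7.34, 6.37 and 6.85 in males, so that its highest proboscis value came within 0.10 of the lowest antenna value. At each of the 10 spots the ranges of the antenna and first leg samples overlapped.

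Since the rule placed all 8 proboscis values below the rest, the direction within a dye or an array follows from the choice of the spots, and only the sizes are described here. Each dye held 4 samples of every tissue, but in the antenna the sexes were unevenly split between the dyes. The median gap over the 10 spots was 1.09 in Cy3 (0.68 to 2.61) and 1.43 in Cy5 (0.78 to 2.57). It was 1.05 in the 8-array set and 1.08 in the 4-array set, although the latter held only 1 first leg sample. On 6 arrays a proboscis sample shared the array with an antenna sample (4 arrays) or a first leg sample (2 arrays), with the proboscis in Cy3 on 3 of them and in Cy5 on the other 3. Within these arrays the other tissue exceeded the proboscis by 0.54 to 3.47 at the 10 spots, with a median of 1.32. The smallest difference, 0.54 at spot 15382, was on the array of antenna male replicate 4 and proboscis female replicate 4, where spot 12144 differed by 0.57.

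Before normalisation the ratios differed with the dye. Where the proboscis was in Cy5, the signal above background was higher in the other tissue at all 30 spot and array combinations, with a median ratio of 4.99, but the median ratio of all spots there was 3.69. Where it was in Cy3, 20 of 30 were higher, with a median ratio of 1.39 against 0.209 for all spots. At 2 members, spots 13337 and 12144, the uncorrected signal above background was higher outside the proboscis on all 6 arrays, by ratios of 2.76 to 13 and 1.45 to 8.31. At the other 8 the uncorrected ratio was below 1 on at least 1 array.

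**Figure D3:**
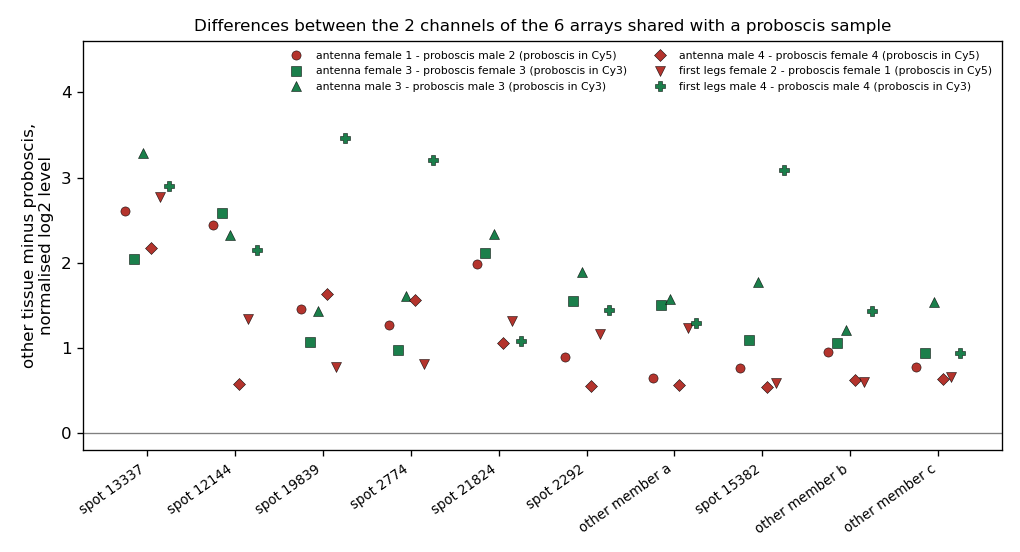
For each of the 10 spots, the 6 points are the differences in normalised log2 level between the antenna or first leg sample and the proboscis sample of the same array, coloured by the dye of the proboscis sample. All points lie above 0, as the rule requires on its own scale, and spot 13337 is the only one with every difference above 2.

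Some of the 10 spots repeat each other. Over the 24 samples the levels of spots 2774 (row 13, column 194) and 19839 (row 93, column 59) correlated at 0.989, with a mean absolute difference of 0.12, and so did spot 2292 and a member 17036 spots farther on (0.988, mean absolute difference 0.11). The first pair is 17065 spots apart. Such distances recur across the array. Of 1168 pairs of spots that were each other's best match with a correlation over 0.95, 332 (28.4%) were 16900 to 17100 spots apart, and the lower number of these pairs ran from 74 to 5574. The correlations are over 24 samples that share dyes and arrays, and whether these are copies of 1 probe is not stated in the files. Counting each pair once leaves 8 patterns among the 10 spots.

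In all, 7 members lay in the stretches of the array that recur in this way, and 3 (spots 13337, 12144 and 15382) lay outside them. For 3 of the 7 the best match at that distance was no member. The match of spot 21824 correlated with it at 0.952 and had a gap of 0.89 on the rule's scale, but its lowest value elsewhere minus its highest proboscis value was -0.0116. A second match, at a correlation of 0.975, fell short only through its gap of 0.68. The third, at 0.903, had a gap of 0.66 and overlapping values.

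The 2 pairs had different patterns across samples. Spots 2774 and 19839 were the dimmest in the proboscis, with levels of 5.77 to 6.07 and 5.81 to 6.04 in its 8 samples, close to the lowest level of any spot. In the first legs spot 2774 had levels of 7.06, 6.82, 6.73 and 8.58 in female replicates 1 to 4 and 7.17, 6.96, 6.69 and 9.06 in males. In the antenna it had 7.28, 7.41, 6.84 and 7.003 in females and 8.36, 7.69, 7.38 and 7.50 in males. Spot 19839 showed the same 3 high samples, first legs female replicate 4, first legs male replicate 4 and antenna male replicate 1, at 8.86, 9.28 and 8.38. These 3 are the only antenna or first leg samples that were labelled RIL 89 and hybridised in Cy5 in the 8-array set, and the proboscis sample of that kind stood at 5.93 at spot 2774. The proboscis levels lie close to the bottom of the scale, and the size of the gap (1.46 at spot 2774) depends on the processing. It was 1.02 with an offset of 100 and 1.10 with background subtraction in place of normexp. In the deposited value table, converted to log2 and quantile normalised but with neither normexp nor an offset, it was 1.91.

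**Figure D4:**
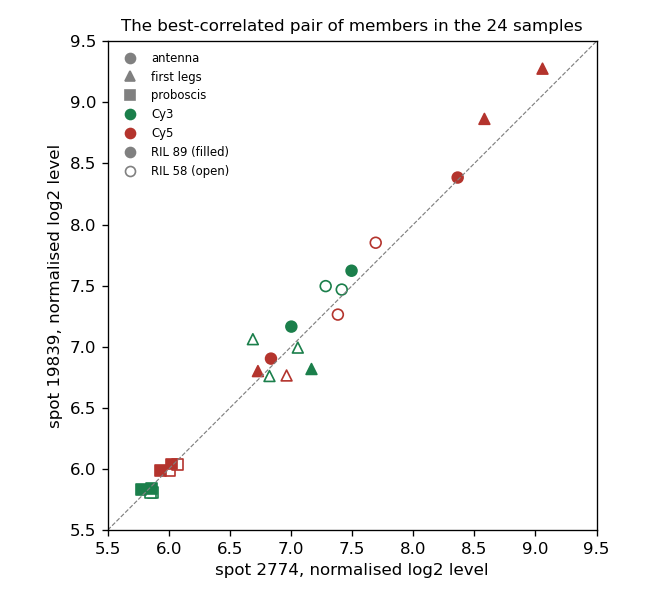
Normalised log2 levels of spots 2774 and 19839 in the 24 samples, with shape for tissue, colour for dye and filled symbols for RIL 89, around the dashed line of equality. The 8 proboscis samples lie at the lower left under 6.1, and the 3 highest points are 2 first leg samples and 1 antenna sample, all Cy5 and RIL 89.

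Spot 2292 and its match varied little in the proboscis and more in the other tissues. Spot 2292 lay between 7.34 and 7.69 in the 8 proboscis samples (SD 0.11), and between 7.86 and 9.40 in the antenna and 8.08 and 9.74 in the first legs (SD 0.51 and 0.63, n = 8 each). The 4 female antenna samples stood at 8.29, 7.86, 8.94 and 8.98 and the 4 male ones at 8.69, 8.69, 9.40 and 8.08. In the first legs it had 8.08, 8.86, 9.74 and 9.30 in females and 8.15, 9.71, 8.67 and 8.97 in males, overlapping the antenna. Its match had an SD of 0.06 in the proboscis, the smallest of the 10. The 2 members not described so far were less bright, with antenna means of 7.66 and 7.69 and gaps of 0.93 each. Over all 45 pairs of members the correlation between levels was 0.61 to 0.99 (median 0.77), which includes the tissue difference that chose them. With the tissue means taken out it was -0.04 to 0.97 (median 0.26).

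Sex was not used in choosing the spots and could be tested, in a limma model fitted to all 22575 spots. In the first legs 1 of the 10 members differed between males and females, where 0.173% of all spots did. This was spot 15382. Its levels were 8.12, 8.09, 8.93 and 8.56 in female replicates 1 to 4 and 9.02, 9.80, 8.84 and 9.93 in males. The groups overlapped only in that the lowest male value was below the highest female value, and within each dye they did not overlap. Males were higher by 1.03 ± 0.12 (SE) on the log2 scale, a 2.04-fold difference (adjusted p = 0.000212, limma), and by 0.82 among the Cy3 samples and 1.12 among the Cy5 samples (2 of each sex). These within-dye values are not matched for array set or RIL number. Female replicate 3, in Cy5, was the only first leg sample in the 4-array set. In female first legs the Cy3 samples were RIL 58 and the Cy5 samples RIL 89. On the 2 arrays that paired a male with a female first leg sample the differences were 1.69 and 0.27, with the male in Cy5 on the first and in Cy3 on the second.

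No sex difference was called at spot 15382 in the other tissues. In the antenna males differed from females by -0.17 ± 0.14 and in the proboscis by 0.06 ± 0.18 (SE), with limma adjusted p-values of 0.781 and 1.00. Plain differences between the sexes, taken without the fit, varied with the dye. Among Cy3 samples the plain differences were -0.55 in the antenna (1 male, 3 females) and -0.57 in the proboscis (2 of each sex). Among Cy5 samples they were -0.13 (3 males, 1 female) and 0.12 (2 of each sex). On the 1 array of each tissue that paired the sexes they were 0.21 and 0.25. In the proboscis the males and females of a dye came from different array sets, so its differences within a dye also compare the sets. A joint limma test of whether the sex difference varied between tissues gave an adjusted p of 0.00978, so 1 of 10 members passed where 0.0354% of all spots did. That adjusted p was 0.0651 without antenna female replicate 2 and 0.0811 without first legs female replicate 4, and 0.147 when samples were scaled to 1 median. With no dye term both calls were lost (adjusted p = 1.00 each, limma), and the joint one was also lost with no array block (adjusted p = 0.418, limma). The estimated first leg difference with no dye term was 1.01. Male first legs had the highest mean of the 6 groups at this spot, 9.40 ± 0.55, followed by female first legs at 8.42 ± 0.40, female antennae at 8.18 ± 0.37 and male antennae at 7.97 ± 0.26 (SD, n = 4 each), the last 3 overlapping. The 2 spots most like it over the 24 samples, looked up after its values were seen, were no members. Each correlated with it at 0.913, and they lay 17040 spots apart.

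**Figure D5:**
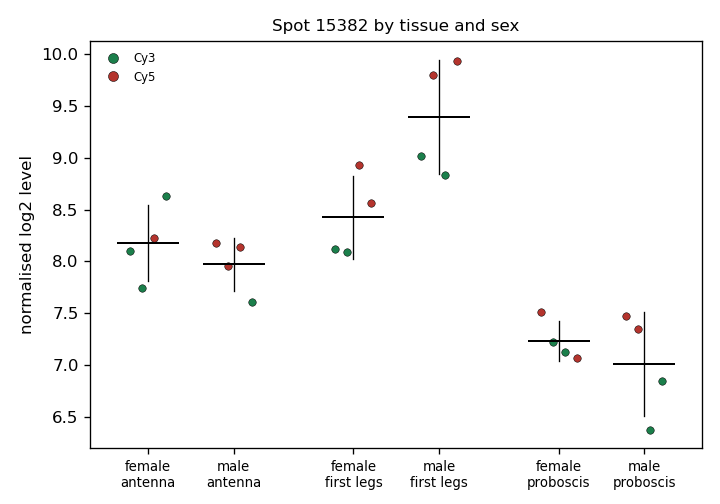
Normalised log2 levels of spot 15382 in the 4 samples of each sex and tissue, coloured by dye, with bars for means and lines for ± 1 SD. Male first legs lie highest, at 8.84 to 9.93, and within each dye above the female first legs.

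No other member passed a sex test in limma. All male antenna samples were in the 8-array set, and the 3 antenna samples of the 4-array set were female. Cy3 held 1 male and 3 female antenna samples, and Cy5 held 3 male and 1 female. Sex in the antenna was thus largely tied to dye and array set. In the antenna 0 of 10 passed, where 0.146% of all spots did, with 1 member at an unadjusted p under 0.05, as were 8.71% of all spots. That was spot 12144, with a male minus female difference of -0.47 ± 0.21 (SE, adjusted p = 0.548, limma). This value was -0.14 without antenna male replicate 4, -0.27 without proboscis female replicate 4, -0.28 without antenna female replicate 3 and -0.78 without antenna female replicate 2. It was -0.21 with samples scaled to 1 median and -0.11 with no dye term. The differences of the 10 spots in the antenna lay between -0.47 and 0.14. In the proboscis sex was tied to dye within each array set. In the 8-array set the females were in Cy5 and the males in Cy3, and in the 4-array set the reverse held. Within a set the sexes thus differed in dye, and within a dye they differed in set. The proboscis test therefore depends on the fitted dye effects, and a count of 0 says little about sex. In the proboscis 0 of 10 passed, where 0.0133% of all spots did. At an unadjusted p under 0.05 were 0 members, against 3.2% of all spots. The differences there lay between -0.35 and 0.56, and the smallest p was at spot 21824, at 0.40 ± 0.24 (SE, adjusted p = 1.00, limma). Without proboscis male replicate 4 or antenna female replicate 2 it was 0.21, and without proboscis male replicate 1 it was 0.68. It was 0.024 with samples scaled to 1 median and 0.026 with cyclic loess, and turned to -0.14 with 1 dye effect for all arrays. In the first legs the 9 members other than spot 15382 differed by -0.36 to 0.24, with a second member at an unadjusted p under 0.05, as were 6.77% of all spots. None of these could be told from the spread between samples with 4 samples a group, which does not show that the sexes were alike. In the antenna and proboscis the tie of sex to dye and array set limits the tests further.

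Between the RIL numbers 0 of 10 members passed in limma, where 0.0% of all spots did. At an unadjusted p under 0.05 were 6.22% of all spots and 2 members, spots 2774 and 19839, whose RIL 89 minus RIL 58 differences were 0.55 ± 0.20 and 0.61 ± 0.22 (SE) on the log2 scale, each with an adjusted p of 0.797. They repeat each other, as described above. Without first legs male replicate 4 the difference at spot 2774 was 0.29, and it was 0.32 with samples scaled to 1 median, 0.35 with no array block and 0.36 with cyclic loess. Between replicates 3 and 4 and replicates 1 and 2, a comparison added after the data were examined, 0 of 10 passed, where 0.913% of all spots did in limma, and 0 were at an unadjusted p under 0.05, where 12.3% of all spots were. The differences of the 10 spots in that comparison ran from -0.06 to 0.31. In females that split is the same as the split by RIL number.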

How the data were processed

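Titles gave the tissue and sex of the 24 samples, the label field the dye and the description the RIL number. Each scanner file holds linear intensity values, mean signal and mean local background for 22575 spots, unnormalised per the file headers, and a quality score per spot, not explained per the file headers. The deposited value table holds the natural log of signal minus background, equal to the scanner values within 9e-08. Which program read the images is not stated in the labels or headers.

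The members, the comparisons and the spots to be named were chosen with earlier results of these data known. Spots named by number were the 2 with the largest gap, the 2 with the largest antenna or first leg excess, the best-correlated pair, and in each test the called member or the one with the smallest p. Samples whose quality scores agreed at every spot were taken as 1 array (12 arrays). These were split at the widest step in channel correlation.

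R 4.3.3 and limma 3.58.1 fitted 6 group means, RIL number and separate dye effects in the 8-array and 4-array sets, with array as random block (correlation 0.552, 14 residual degrees of freedom) and a variance trend. Two-sided p-values were adjusted by Benjamini-Hochberg over all spots and called under 0.05. They set each fitted difference only against the spread among these samples, and that spread may be technical. Python 3.11.15 and pandas 2.3.3 did the rest. Other settings are given in the closing section.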

Additional observations from a re-analysis of the deposited data

Results flagged for a closer look

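At spot 15382 the joint limma test called a male minus female difference that varied between tissues (adjusted p = 0.00978). The call was lost in 3 of 14 other settings and in 2 of 24 fits without 1 sample. In the fit the difference was 1.03 in the first legs, -0.17 in the antenna and 0.06 in the proboscis. Sex in the antenna and proboscis was tied to dye and array set, so those 2 values depend on the fitted dye effects. On arrays that paired the sexes the plain differences were 1.69 and 0.27 in the first legs, 0.21 in the antenna and 0.25 in the proboscis. The plain antenna and proboscis values differed between the dyes, as given above.

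In 4 of 42 combinations of a numbered spot and a group of 4 samples, 1 sample lay far from the other 3. Chance gives about 1 in 20 groups, and the combinations are not independent. Spot 19839 stood at 8.86 in first legs female replicate 4, against 6.76 to 6.99 in the others, and at 9.28 in first legs male replicate 4, against 6.76 to 7.06. Spot 13337 stood at 8.92 in proboscis male replicate 2, against 8.27 to 8.37. Spot 21824 stood at 8.07 in first legs female replicate 1, against 8.45 to 8.49.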

How the results depend on the processing

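The rule found 4 spots when samples were scaled to 1 median, 18 with cyclic loess and 19 in the deposited value table after quantile normalisation. Of these, 4, 9 and 10 were among the 10 members. It found 15 with normexp, 8 without background correction and 7 with an offset of 100. Leaving out 1 sample gave 8 to 16 spots, the 16 without proboscis female replicate 4, and kept 8 to 10 of the members. The median gap of the members stayed between 0.98 and 1.30 over the 6 other settings. With samples scaled to 1 median, however, only 5 of the 10 members kept all 8 proboscis values below the other 16. In each of the remaining settings all 10 did. The sex call in the first legs was lost in 1 of 14 other settings, no dye term (count 0), and in 0 of 24 fits without 1 sample, where the limma adjusted p was 9.15e-05 to 0.0299. The call that the sex difference varied between tissues was lost (count 0) with scaling to 1 median, no dye term and no array block, and the count was 0 to 1 over the 24 fits without 1 sample. The causes were not tested. The counts of 0 in the antenna, the proboscis and between RIL numbers remained 0 in each setting run. The proboscis sex difference at spot 21824 turned to -0.14 with 1 dye effect for all arrays and -0.025 with no dye term, without passing. As described above, sex in the proboscis was tied to dye within each array set. With the replicate number as a block the counts were 0, 1 and 0 for sex in the antenna, first legs and proboscis, 1 for the joint test and 0 for RIL number. Samples of the same number did not deviate together, with 21 of 60 pairs correlating over 0.1, so the numbers were not taken as pairing. Signal over background limits the dimmest members, spots 2774 and 19839, most.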
